A study of Mus musculus with 9 samples.

Results

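Chromatin accessibility was examined around 7 genes that regulate tumour dormancy, the state in which disseminated cancer cells persist without dividing. They were the nuclear receptor genes Nr2f1 and Rarb, the transcription factor gene Sox9, the circadian repressor genes Bhlhe40 and Bhlhe41, the chaperone gene Hspa5 and the glycolysis regulator gene Pfkfb3. A peak was included when its centre lay in the gene body or within 50 kb of either end, which gave 159 of the 146734 peaks measured. Rarb, a gene of 651 kb, held 64 of them. Hspa5 and Pfkfb3 held 23 each, Bhlhe40 17, Bhlhe41 15, Sox9 11 and Nr2f1 6.

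The study used ATAC-seq, in which a transposase cuts and tags open chromatin, in D2A1-d cells, a mouse mammary carcinoma line. Cells had been transduced with a hairpin without a target (NTC) or with 1 of 2 short hairpins that target Med4 (shMed4 #1 and shMed4 #4), with 3 libraries per group that the labels call biological replicates. Med4 encodes a subunit of Mediator, the complex that connects enhancer-bound factors with RNA polymerase II. All groups come from the same line, labelled wild type in genotype and without other treatment, so nothing but the hairpin separates them in the labels. The depletion of Med4 itself was not measured in these libraries, which report DNA accessibility and not transcripts. In such bulk libraries, fewer cells with an open site and a less open site in each cell cannot be told apart.

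NR2F1 is an orphan nuclear receptor that holds disseminated tumour cells in quiescence, and SOX9 and RARB act in the same programme. Retinoic acid receptors bind response elements made of repeated hexamers, and the Rarb promoter carries such an element. BHLHE40 and BHLHE41 are transcriptional repressors that bind E-box motifs and oppose the core clock, and BHLHE41 has been tied to quiescence of disseminated cells. HSPA5, also called BiP, is the main chaperone of the endoplasmic reticulum and is induced by the unfolded protein response. PFKFB3 makes the sugar bisphosphate that activates phosphofructokinase and so sets the pace of glycolysis.

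Promoters of 3 members are shown because an ATAC-seq peak lay on each of these starts and the 250 bases before the start hold a motif searched for below. They are printed 5′ to 3′ on the coding strand from RefSeq (GRCm38.p6), in lower case with the motif in capitals. For Rarb (chr14:16575477-16575726, minus strand) the capitals mark a retinoic acid response element. For Hspa5 (chr2:34771840-34772089, plus strand) they mark CCAAT boxes on either strand and, in the longest run, an endoplasmic reticulum stress element. For the inner start of Pfkfb3 (chr2:11502091-11502340, minus strand) they mark an E-box.
Rarb: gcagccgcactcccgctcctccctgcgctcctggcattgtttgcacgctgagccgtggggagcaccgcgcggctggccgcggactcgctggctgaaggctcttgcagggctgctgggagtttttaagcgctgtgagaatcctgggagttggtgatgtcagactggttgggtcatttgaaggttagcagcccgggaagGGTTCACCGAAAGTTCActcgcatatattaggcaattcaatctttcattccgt
Hspa5: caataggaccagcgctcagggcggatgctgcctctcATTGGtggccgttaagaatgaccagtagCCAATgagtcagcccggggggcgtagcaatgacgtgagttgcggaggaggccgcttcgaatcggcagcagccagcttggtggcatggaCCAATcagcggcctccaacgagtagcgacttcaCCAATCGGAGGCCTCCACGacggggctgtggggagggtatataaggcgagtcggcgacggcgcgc
Pfkfb3: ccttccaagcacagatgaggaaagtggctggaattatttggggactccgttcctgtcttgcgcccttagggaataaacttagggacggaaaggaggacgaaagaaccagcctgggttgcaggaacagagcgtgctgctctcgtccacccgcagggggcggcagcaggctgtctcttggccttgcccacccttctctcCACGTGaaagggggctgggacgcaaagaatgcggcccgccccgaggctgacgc

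The retinoic acid response element was searched on both strands as a pair of hexamers in the same orientation with 5 bases between them, where a hexamer could read AGGTCA or have the variant form GGTTCA, or else the variant form AGTTCA. It stood in 0.0609% of 32851 mouse promoter windows of 250 bases before to 50 after the start. In Rarb it ran from -53 to -37 relative to the start. The stress element, CCAAT and CCACG with 9 bases between them, stood in 0.119% of windows and ran from -65 to -47 in Hspa5. CCAAT alone, which overlaps that element, occurred in 37.4% of windows and matched at 4 places in Hspa5. The E-box CACGTG stood in 7.15% of windows, at -53 to -48 from the inner Pfkfb3 start and at -153 to -148 in Bhlhe41. The outer Pfkfb3 start had no match to any of these motifs. Of the 7 members, 5 have entries in the promoter table used here. These matches describe letters and not bound sites.

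Every member had called peaks with both hairpins, and the direction differed from gene to gene. Having called peaks is not particular to these genes, since many of all tested peaks were called too. Differences were tested with limma over all 146729 peaks with a mean of at least 10 normalised reads, and a peak was called at an adjusted p under 0.05. With shMed4 #1, 36 of the 159 peaks rose and 56 fell, where 27.9% of all tested peaks rose and 24.9% fell. With shMed4 #4, 37 rose and 53 fell, against 26.2% and 24.3% of all tested peaks. Between the hairpins, 35 peaks were higher with #4 than with #1 and 29 lower, against 20.4% and 21.2%. The median log2 fold of the 159 peaks was -0.02 with #1 and -0.06 with #4, and that of all tested peaks -0.01 and -0.02. Both hairpin comparisons use the same 3 NTC libraries.

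The split between rises and falls depended on the scaling. When libraries were centred on their median level at gene-start peaks, the counts became 49 higher and 40 lower with #1, and 48 and 31 with #4. That centring put the median of all peaks at 0.08 and 0.11. Under gene-start centring about 33% of all tested peaks rose and 17% fell with #1, and about 35% rose and 12% fell with #4. When each library was centred on the median level of the peak's own chromosome, 24 rose and 50 fell with #1, and 24 rose and 63 fell with #4, with the median of all peaks at -0.11 and -0.13. Under chromosome centring 22.0% of all tested peaks rose and 33.1% fell with #1, and 20.5% and 34.8% with #4. In the comparison of #4 with #1, chromosome centring gave 23 higher and 38 lower, against 17.3% and 20.9% of all tested peaks. Counts per gene under these centrings, given below, stand beside these shares.

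**Figure D1:**
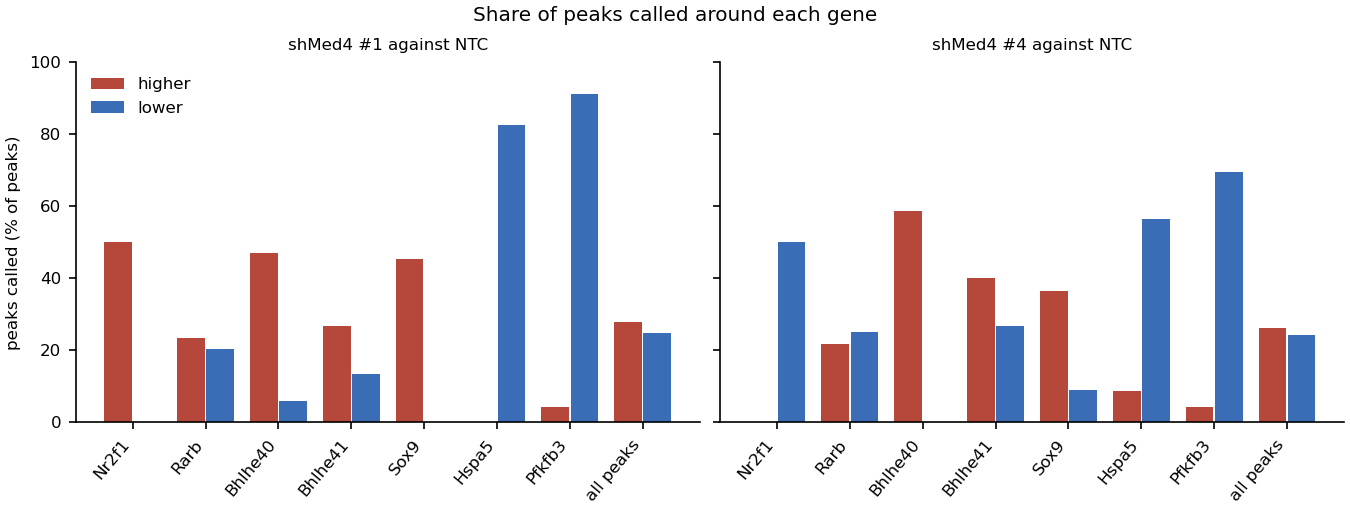
Share of peaks called higher (red) or lower (blue) than NTC, in percent of peaks, around each gene and over all tested peaks, for shMed4 #1 (left) and #4 (right). The lower share reaches 91.3% at Pfkfb3 and 82.6% at Hspa5 with #1, and the higher share reaches 58.8% at Bhlhe40 with #4.

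Hspa5 and Pfkfb3, both on chromosome 2, accounted for most of the falls. Of their 46 peaks, 40 fell and 1 rose with #1, and 29 fell and 3 rose with #4. The other 113 peaks held 35 rises and 16 falls with #1, and 34 rises and 24 falls with #4. Chromosome 2 as a whole was shifted down, with 55.5% of its 11557 tested peaks lower with #1 and 37.8% with #4, and median log2 folds of -0.32 and -0.16. Chromosome 6, which carries Bhlhe40 and Bhlhe41, was shifted up, with medians of 0.10 and 0.14. With each library centred on its chromosome's median level, 20 of the 46 peaks of Hspa5 and Pfkfb3 were lower with #1 and 28 with #4, and 3 were higher with each. Centring chromosomes on the median deviation from each peak's mean, added after the data were seen, gave 15 lower and 4 higher with #1, and 22 and 5 with #4. In that version 23.6% of all tested peaks were lower and 27.1% higher with #1, and 23.0% and 25.8% with #4. What the chromosome-wide shifts contribute to single peaks was not tested beyond these centred counts.

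**Figure D2:**
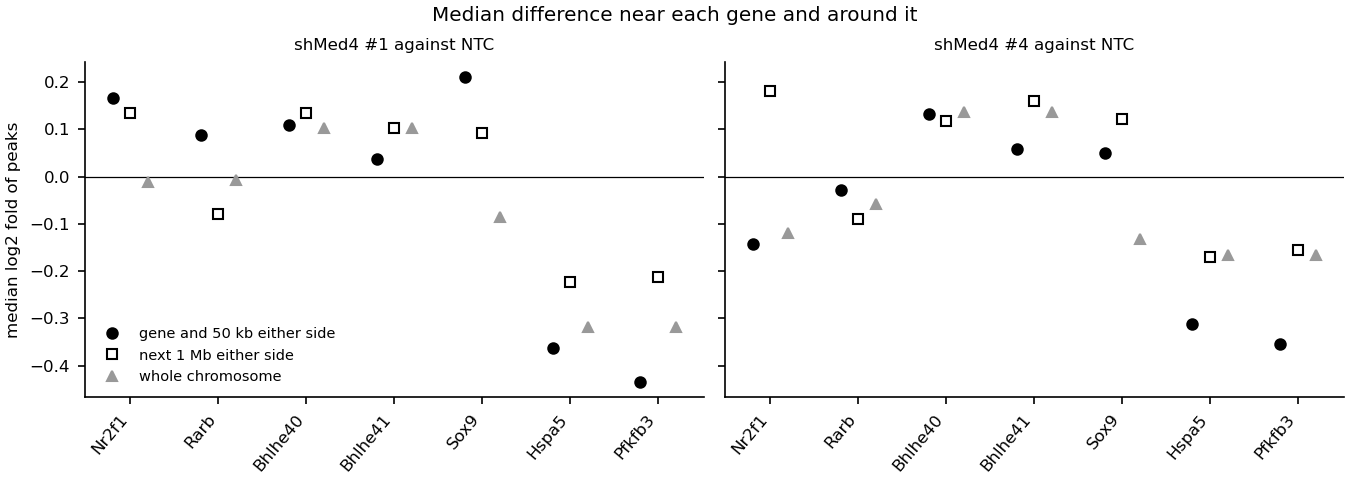
Median log2 fold against NTC of the peaks in each gene's window (black circles), in the next 1 Mb on either side (open squares) and on the whole chromosome (grey triangles), for shMed4 #1 (left) and #4 (right). The windows of Hspa5 and Pfkfb3 lie below their surroundings, at -0.36 and -0.43 with #1 against -0.22 and -0.21 in the flanks. The median of chromosome 2 with #1 is -0.32, near that of the Hspa5 window.

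**Figure D3:**
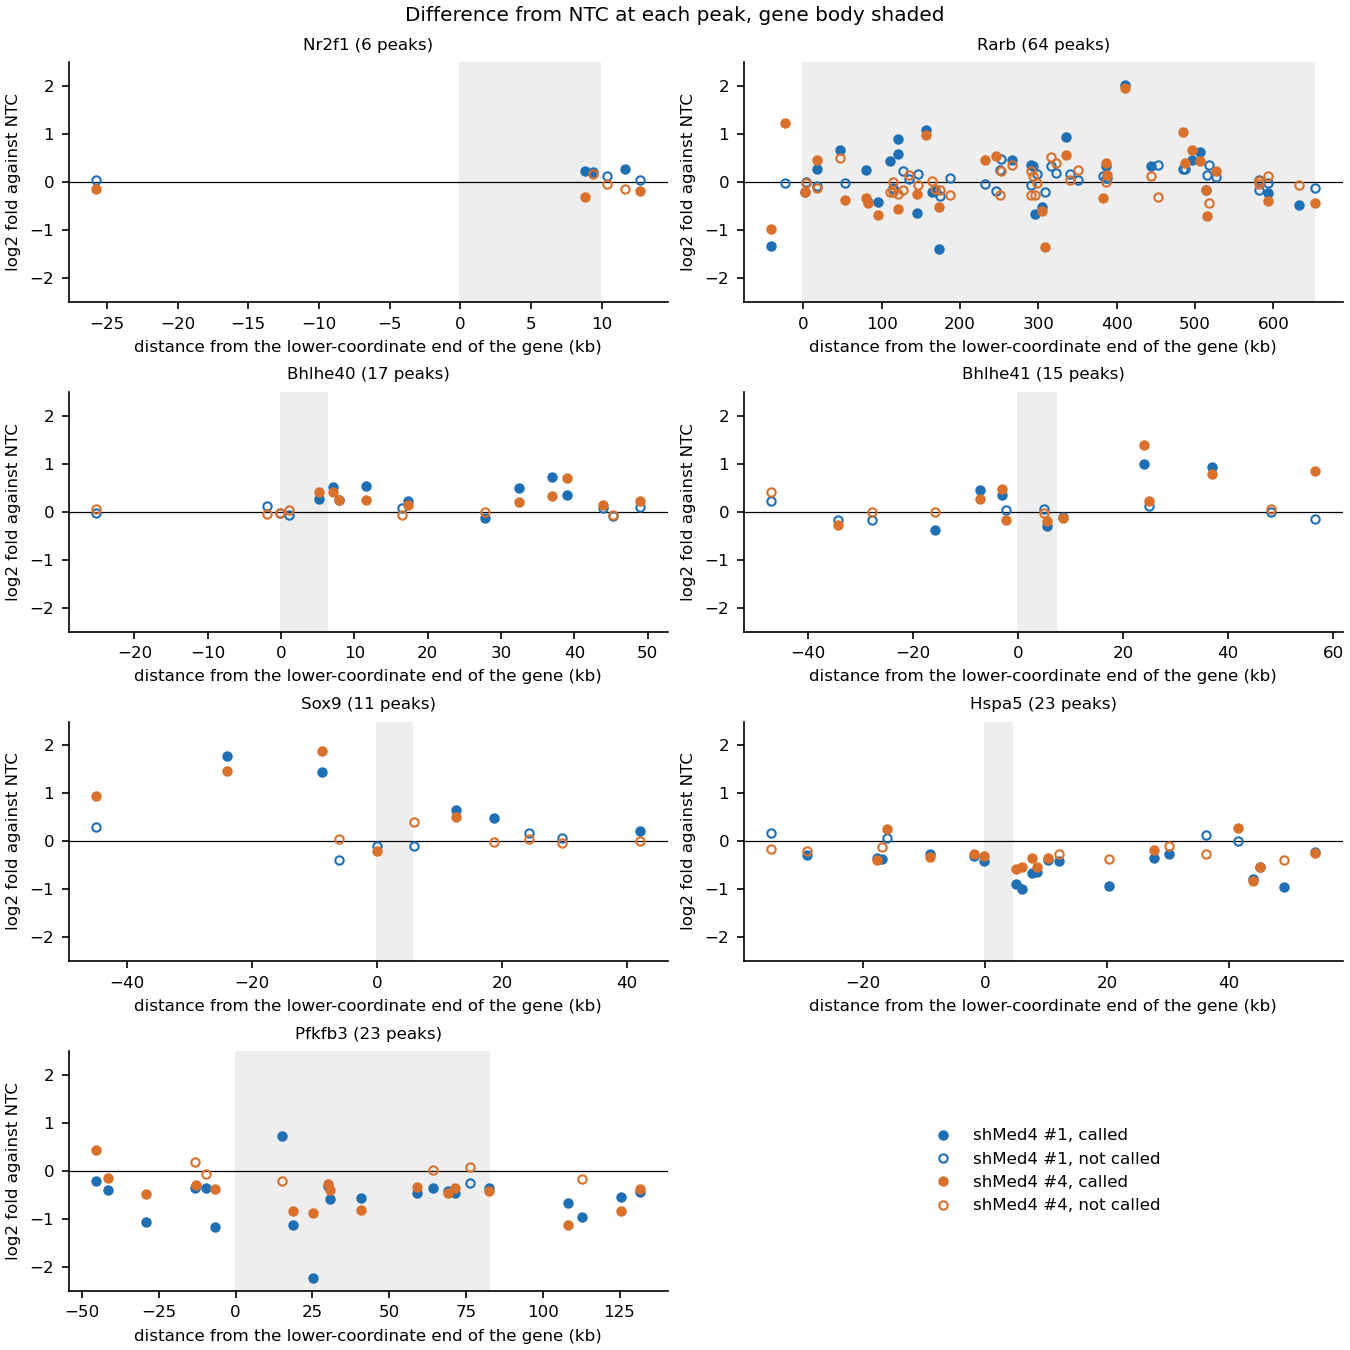
Log2 fold against NTC at each of the 159 peaks by distance in kb from the lower-coordinate end of the gene, with the gene body shaded, for shMed4 #1 (blue) and #4 (orange). Filled points were called and open points were not. Of the filled points at Hspa5 and Pfkfb3, 40 lie below 0 and 1 above with #1, and 29 below and 3 above with #4, and the highest points are beside Sox9 and inside Rarb.

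The start of Nr2f1 did not change detectably in the main fit. Its peak at chr13:78199112-78199613, centred 0.49 kb before the start, held 650, 660 and 654 normalised reads in NTC. It held 641, 784 and 712 with #1 and 587, 629 and 709 with #4. The 3 groups overlapped, and the log2 folds were 0.12 (SE 0.07, adjusted p = 0.18) and -0.03 (SE 0.07, adjusted p = 0.74). With #1 the peak was called higher after centring on gene-start levels (0.21, adjusted p = 0.018) and without #1 replicate 1 (0.19, adjusted p = 0.047).

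Around that start the hairpins went apart. With #1, 3 of the 6 Nr2f1 peaks rose and 0 fell, and with #4, 0 rose and 3 fell. A peak inside the gene, 1.05 kb after the start (chr13:78197569-78198070), held 312, 272 and 306 reads in NTC, 323, 357 and 363 with #1 and 229, 244 and 245 with #4. All #1 libraries were above and all #4 libraries below the NTC libraries. It rose by 0.23 on the log2 scale with #1 (SE 0.09, adjusted p = 0.036) and fell by 0.30 with #4 (adjusted p = 0.0062), and the difference between hairpins was -0.53 (adjusted p = 1.2e-05). A second peak, 1.78 kb before the start, rose with #1 (0.28, adjusted p = 0.0037) and was at -0.14 with #4 (adjusted p = 0.15). In all, 4 of the 6 peaks were lower with #4 than with #1. The strongest peak of the window lies in the neighbouring gene Fam172a and fell by 0.14 with #4 (adjusted p = 0.019), a call lost without NTC replicate 1, NTC replicate 3 or #4 replicate 1. A peak 2.84 kb before the start fell by 0.19 with #4 (adjusted p = 0.037), which was lost with DESeq2 and without NTC replicate 1, NTC replicate 2, NTC replicate 3, #4 replicate 1 or #4 replicate 2. The #4 falls are small next to the scaling. After centring on gene-start levels 0 of the 6 peaks fell with #4 and 1 rose, while 5 rose and 0 fell with #1. After centring by chromosome level 0 rose with #1 and 1 fell with #4. Chromosome centring by deviations gave 3 higher and 0 lower with #1, and 1 and 0 with #4. On chromosome 13 as a whole, 27.6% of tested peaks rose and 24.2% fell with #1, and 20.3% and 34.4% with #4. In the comparison of #4 with #1, 14.6% of them were higher and 31.9% lower. The #1 rise inside the gene lost its call without NTC replicate 2, #1 replicate 2 or #1 replicate 3, and with DESeq2 or equal totals.

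The Rarb start lost accessibility with both hairpins in the main fit, more with #1. The peak over it, chr14:16575320-16575821, contains the promoter stretch with the response element shown above. It held 347, 397 and 394 reads in NTC, 238, 254 and 238 with #1, and 266, 349 and 340 with #4. The #1 libraries lay below all others, while #4 overlapped NTC. The log2 fold was -0.64 with #1 (SE 0.10, adjusted p = 9.7e-07) and -0.26 with #4 (SE 0.10, adjusted p = 0.027), and #4 exceeded #1 by 0.38 (adjusted p = 0.0019). The call with #4 was lost without NTC replicate 2, NTC replicate 3 or #4 replicate 1, and when libraries were centred on gene-start levels (-0.13). It was also lost under chromosome centring by deviations (-0.22, adjusted p = 0.065).

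The rest of the Rarb locus was a mosaic. With #1, 15 of its 64 peaks rose and 13 fell, and with #4, 14 rose and 16 fell, with medians of 0.09 and -0.03. These shares are near those of all peaks. Under centring on gene-start levels, 21 rose and 7 fell with #1, and 18 and 10 with #4. The promoter table holds 1 Rarb start, which lies within the RefSeq gene body, so a peak before that start can still lie inside the gene.

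The largest rise was at chr14:16840679-16841180, 265 kb before that start and inside the gene. It held 83.9, 68.8 and 90.0 reads in NTC, 393, 313 and 293 with #1, and 364, 299 and 289 with #4. Every hairpin library was at least 3 times the highest NTC library. The site was 4.07-fold more open with #1 (log2 fold 2.02, SE 0.12, adjusted p = 1.9e-16) and 3.89-fold with #4 (1.96, adjusted p = 6.2e-16), and the hairpins did not differ detectably (-0.06, SE 0.12, adjusted p = 0.72). A stronger site 11.5 kb before the start (chr14:16586678-16587179) went from 417 ± 33.4 reads (SD, n = 3) to 885 ± 66.9 and 820 ± 56.1, 2.12-fold and 1.96-fold more. Rarb's strongest peak, 127 kb after the start, rose by 0.28 with #1 and 0.47 with #4.

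The deepest fall inside Rarb with #1 was 27.9 kb before the start, at chr14:16603141-16603642. It held 667, 641 and 665 reads in NTC, 242, 256 and 245 with #1, and 521, 458 and 397 with #4. The groups were fully separated, with #4 between NTC and #1. The log2 folds were -1.40 (SE 0.08, adjusted p = 8.9e-17) and -0.53 (adjusted p = 2.2e-06), and #4 exceeded #1 by 0.88 (adjusted p = 9.4e-11). A site 163 kb before the start (chr14:16738569-16739070) did the opposite: it fell by 1.34 with #4 (adjusted p = 3.6e-09), from 149 ± 2.74 to 58.1 ± 4.11 reads (SD, n = 3), and was at -0.22 with #1 (adjusted p = 0.25). In the 50 kb below the gene, inside Top2b, 1 weak peak fell with both hairpins (-1.33 and -0.98), and another rose with #4 (1.23, adjusted p = 6.0e-06), stood at -0.02 with #1 (adjusted p = 0.95), and so differed between hairpins (adjusted p = 7.0e-06).

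Sox9 encodes a transcription factor of stem and progenitor cells. Of its 11 peaks, 0 were centred inside the gene, so any change had to lie outside it. At chr11:112757974-112758475, 24.0 kb below the lower-coordinate end of the gene, NTC held 290, 225 and 203 reads. The #1 libraries held 889, 782 and 780, and the #4 libraries 649, 655 and 670. All 6 hairpin libraries lay well above all NTC libraries. The site was 3.44-fold more open with #1 (log2 fold 1.78, SE 0.09, adjusted p = 3.8e-19) and 2.77-fold with #4 (1.47, adjusted p = 1.3e-16), and #4 was below #1 by 0.31 (adjusted p = 0.0048).

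Another site, 8.83 kb below the same end (chr11:112773127-112773628), held 69.4, 118 and 58.9 reads in NTC, 245, 193 and 213 with #1, and 321, 303 and 258 with #4. The groups did not overlap. Its log2 folds were 1.45 (SE 0.16, adjusted p = 8.5e-10) and 1.88 (adjusted p = 1.6e-12). Here #4 was above #1 by 0.44 (adjusted p = 0.026), a call lost with DESeq2 (adjusted p = 0.16) and without #1 replicate 2, #1 replicate 3, #4 replicate 1 or #4 replicate 2. The strongest peak of the window, 24.0 kb above the gene, was at 0.08 and -0.04 and not called. The peak at the lower-coordinate end itself, chr11:112781922-112782423, held 1778 ± 71.9 reads in NTC (SD, n = 3), 1661 ± 69.0 with #1 and 1540 ± 147 with #4. It fell by 0.21 with #4 (adjusted p = 0.0029), a call lost after centring on gene-start levels (-0.08), and was at -0.10 with #1 (adjusted p = 0.16). Over the 11 Sox9 peaks, 5 rose and 0 fell with #1, and 4 rose and 1 fell with #4. Chromosome-level centring gave the same counts, while chromosome 11 had medians of -0.08 and -0.13.

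**Figure D4:**
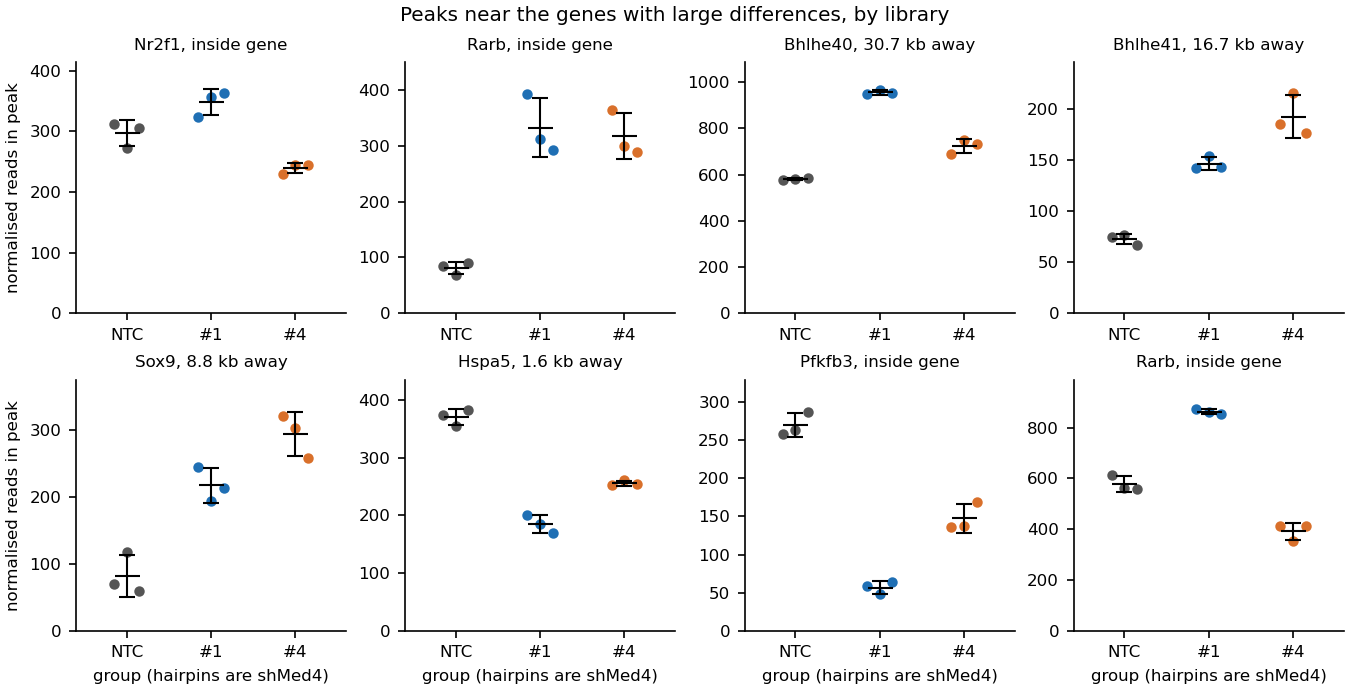
Normalised reads per library at the peak with the largest change near each gene (mean of at least 50), and, in the last panel, at the Rarb peak with the largest hairpin difference in opposite directions. Points are libraries, the bar is the mean and the whisker 1 SD (n = 3 per group). In the Nr2f1 panel and the last panel #1 lies above and #4 below NTC, and in the others both hairpins lie on the same side of NTC.

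In the main fit, Bhlhe40 gained accessibility at and beyond its higher-coordinate end, while no change was detected at its lower-coordinate end. The peak at the lower end, chr6:108660209-108660710, held 2679, 2676 and 2848 reads in NTC, 2571, 2598 and 2844 with #1, and 2406, 2791 and 2817 with #4. The 3 groups overlapped, at log2 folds of -0.03 and -0.04 (SE 0.05 each, adjusted p = 0.62 and 0.60). Inside the gene near the other end, chr6:108665532-108666033 held 3254, 3318 and 3300 reads in NTC, 3954, 3925 and 4001 with #1, and 4000, 4533 and 4648 with #4. All hairpin libraries exceeded all NTC libraries there. It rose by 0.27 (SE 0.05, adjusted p = 1.6e-05) and 0.41 (adjusted p = 4.9e-09). These rises fell to 0.04 and 0.12 and lost their calls when each library was centred on the median level of chromosome 6. Under that centring the lower-end peak was called lower with #1 (-0.27, adjusted p = 0.0011) and #4 (-0.33, adjusted p = 7.7e-05). It was also called lower with both hairpins, at -0.16 and -0.19, under chromosome centring by deviations. In that version both rises near the other end kept their calls.

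Farther out, 30.7 kb above the gene (chr6:108697354-108697855), reads went from 575, 579 and 584 in NTC to 948, 968 and 952 with #1 and 689, 749 and 732 with #4. The groups were separated in the order NTC, #4, #1. The log2 folds were 0.72 (SE 0.06, adjusted p = 2.1e-12) and 0.32 (adjusted p = 5.2e-05), and #4 was below #1 by 0.40 (adjusted p = 1.8e-06). Under chromosome-level centring the #4 rise at this site was 0.02 (adjusted p = 0.80). A neighbour 32.7 kb above the gene had the reverse order, with log2 folds of 0.35 and 0.69 and #4 above #1 by 0.34 (adjusted p = 0.00041). Its #1 rise was 0.12 (adjusted p = 0.20) under chromosome-level centring. Under chromosome centring by deviations, the #4 rise at 30.7 kb and the #1 rise at 32.7 kb kept their calls. A peak 5.33 kb above the gene rose by 0.54 and 0.24. The strongest peak of the window, 42.7 kb above the gene, was at 0.09 with #1 (adjusted p = 0.12) and rose by 0.22 with #4 (adjusted p = 0.00048), and both #4 rises lost their calls under chromosome-level centring. The single fall, 21.6 kb above the gene, was -0.12 with #1 (adjusted p = 0.043) and was lost with TMM scaling, with gene-start centring and without any 1 of 6 libraries. In total 8 of the 17 Bhlhe40 peaks rose and 1 fell with #1, and 10 rose and 0 fell with #4. After chromosome-level centring the direction turned, with 4 higher and 5 lower with #1 and 1 higher and 8 lower with #4. Centring chromosomes on the median deviation from each peak's mean instead, an alternative chosen after seeing the data, gave 6 higher and 4 lower, and 4 higher and 5 lower.

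Bhlhe41, the close relative of Bhlhe40, had no peak within 1 kb of its start. The nearest, 1.27 kb before it, held 1860 ± 45.1 reads in NTC (SD, n = 3), 1723 ± 96.4 with #1 and 1698 ± 58.2 with #4. It was named for its place after the values were seen, and its log2 folds were -0.11 (adjusted p = 0.073) and -0.13 (adjusted p = 0.035).

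The Bhlhe41 peaks that opened lay farther upstream. At 16.7 kb before the start (chr6:145881879-145882380) NTC held 74.3, 77.0 and 67.1 reads, #1 held 142, 154 and 143, and #4 held 185, 216 and 176. The groups did not overlap. Accessibility was 2.00-fold higher with #1 (SE 0.14 on the log2 scale, adjusted p = 1.8e-07) and 2.62-fold with #4 (1.39, adjusted p = 1.6e-10). The #4 level was above #1 by 0.39 (adjusted p = 0.026), a call lost under chromosome-level centring (adjusted p = 0.067) and without #1 replicate 1, #1 replicate 3 or #4 replicate 2. A weak site 29.8 kb before the start rose by 0.93 and 0.79. At 49.4 kb before the start (chr6:145914613-145915114) the 3 NTC libraries held 157, 157 and 153 reads and the #1 libraries 156, 139 and 128, while #4 held 320, 257 and 266. This site rose by 0.84 with #4 (SE 0.12, adjusted p = 2.5e-07) and stood at -0.15 with #1 (adjusted p = 0.30), a hairpin difference of 0.99 (adjusted p = 1.5e-08). The strongest peak, 40.9 kb before the start, was at -0.01 and 0.06 and not called.

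The Bhlhe41 falls were smaller. A peak inside the gene (chr6:145863570-145864071) held 537, 486 and 501 reads in NTC, 392, 403 and 445 with #1, and 426, 435 and 471 with #4. All hairpin libraries were below NTC, at log2 folds of -0.30 (SE 0.08, adjusted p = 0.0015) and -0.19 (adjusted p = 0.037), of which the #4 fall was lost with DESeq2, with gene-start centring and without NTC replicate 1, NTC replicate 3, #4 replicate 1 or #4 replicate 2. A site 23.0 kb after the start fell by 0.38 with #1 (adjusted p = 0.029) with groups that overlapped, and was at -0.01 with #4. That call was lost with DESeq2, with gene-start centring and without NTC replicate 1, NTC replicate 2, #1 replicate 1 or #1 replicate 3. A site 41.4 kb after the start fell by 0.28 with #4 (adjusted p = 0.015) and was at -0.17 with #1, and its call was lost with gene-start centring and without NTC replicate 3 or #4 replicate 1. Over the 15 peaks, 4 rose and 2 fell with #1, and 6 rose and 4 fell with #4. Chromosome-level centring again turned the balance, to 3 higher and 8 lower with #1 and 3 and 7 with #4. Chromosome centring by deviations gave 3 higher and 6 lower with #1, and 4 and 4 with #4. Gene-start centring gave 8 higher and 0 lower with #4.

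Hspa5 lost accessibility at its start with both hairpins. The start peak, chr2:34771741-34772242, which spans the promoter printed above, was also the strongest of the 23 peaks and stood at the 99.4th percentile of all peaks in NTC. It held 4405, 4593 and 4676 reads in NTC, 3250, 3386 and 3687 with #1, and 3395, 3837 and 3807 with #4. All 6 hairpin libraries lay below all NTC libraries, and the hairpins overlapped each other. The log2 folds were -0.41 (SE 0.05, adjusted p = 1.6e-08) and -0.31 (SE 0.05, adjusted p = 3.5e-06). After chromosome centring by deviations the fall with #1 was -0.10 and no longer called.

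Around Hspa5, 19 peaks fell and 0 rose with #1, and 13 fell and 2 rose with #4. The window is crowded, since 18 of its 23 peaks lie in the bodies of the neighbours Gapvd1, Rabepk and Fbxw2. The deepest fall with #1 was inside Rabepk, 1.57 kb beyond the Hspa5 end (chr2:34777847-34778348). Reads there went from 375, 354 and 382 in NTC to 200, 185 and 169 with #1 and 253, 261 and 254 with #4, with #4 between the others and no overlap. The level was 0.50 of NTC with #1 (SE 0.10 on the log2 scale, adjusted p = 3.8e-11) and 0.692 with #4 (adjusted p = 1.8e-05). The lowest log2 fold with #4 was inside Fbxw2, 39.5 kb above the gene, where NTC held 111 ± 7.01 reads (SD, n = 3), #1 64.4 ± 3.11 and #4 62.8 ± 9.70, at -0.78 and -0.82. Another peak inside Rabepk fell by 0.89 and 0.58, and its #4 fall was lost with DESeq2 and without #4 replicate 3. The 2 rises with #4 were small, 0.27 inside Fbxw2 (adjusted p = 0.018) and 0.26 at a start of Gapvd1 (adjusted p = 0.049). The first was lost without NTC replicate 2, NTC replicate 3 or #4 replicate 1, and the second with edgeR, DESeq2 and equal totals and without any 1 of 7 libraries. Chromosome-level centring gave 8 falls and 2 rises with #1 and 13 falls and 2 rises with #4. Chromosome centring by deviations gave 7 falls and 3 rises with #1, and 8 falls and 2 rises with #4. Gene-start centring gave 14 falls with #1 and 7 with #4.

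Pfkfb3 was the most uniformly reduced member. Its outer start peak, chr2:11553711-11554212, held 1975, 1906 and 1991 reads in NTC, 1429, 1541 and 1636 with #1, and 1398, 1559 and 1448 with #4. The hairpin libraries were all below NTC and overlapped each other. It fell by 0.35 with #1 (SE 0.06, adjusted p = 1.5e-06) and by 0.42 with #4 (adjusted p = 7.5e-08). After chromosome-level centring the #1 value was -0.13 and not called. The inner start (chr2:11501820-11502321), whose promoter holds the E-box above and which lies outside the naming rule, held 1744, 1657 and 1759 reads in NTC, 1097, 1136 and 1184 with #1, and 1225, 1299 and 1420 with #4. It fell by 0.59 with #1 (adjusted p = 3.4e-11) and by 0.39 with #4 (adjusted p = 4.6e-07), without overlap among the 3 groups.

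The deepest Pfkfb3 loss with #1 was within the gene, 5.38 kb after the inner start (chr2:11496463-11496964). It held 258, 263 and 287 reads in NTC, 58.4, 47.9 and 63.8 with #1, and 137, 137 and 169 with #4. The #1 level was 0.212 of NTC (log2 fold -2.24, SE 0.14, adjusted p = 7.3e-16) and the #4 level 0.547 (-0.87, adjusted p = 4.2e-06), and #4 was 2.58-fold above #1 (adjusted p = 8.4e-10). A strong site 6.65 kb below the gene (chr2:11464529-11465030) repeated that order, with 2786 ± 95.0 reads in NTC (SD, n = 3), 1231 ± 60.7 with #1 and 2152 ± 123 with #4. Its log2 folds were -1.18 and -0.37, and the hairpin difference was 0.81 (adjusted p = 6.6e-15). The deepest loss with #4 lay 25.7 kb before the outer start (chr2:11579340-11579841), where NTC held 114, 105 and 109 reads, #1 held 65.6, 75.4 and 64.9, and #4 held 48.4, 47.3 and 52.9. The groups did not overlap and #4 was lowest. The log2 folds were -0.66 (adjusted p = 0.0032) and -1.12 (SE 0.19, adjusted p = 4.7e-06). The hairpin difference of -0.46 (adjusted p = 0.047) was lost with edgeR, DESeq2, equal totals, gene-start centring, a fit of only the groups compared and the replicate block, and without any 1 library other than #4 replicate 3. The strongest peak of the window, 41.7 kb below the gene, fell by 0.39 with #1 (adjusted p = 3.0e-07) and by 0.15 with #4 (adjusted p = 0.030), and the #4 fall was lost under all centrings, with DESeq2 and without any NTC library or #4 replicate 1.

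Across the 23 Pfkfb3 peaks, 21 fell and 1 rose with #1, and 16 fell and 1 rose with #4. The rise with #1 was a weak site inside the gene (54.3 ± 9.29 reads in NTC, 90.4 ± 3.95 with #1, SD, n = 3; log2 fold 0.74, adjusted p = 0.0065), where #4 held 47.8 ± 14.7 and was below #1 by 0.95 (adjusted p = 0.00084). Of these peaks, 12 were higher with #4 than with #1 and 3 were lower. After chromosome-level centring 12 peaks were lower with #1 and 15 with #4, and the hairpin differences were 7 higher and 6 lower. Chromosome centring by deviations gave 8 lower and 1 higher with #1, and 14 lower and 3 higher with #4. The sum over all 23 peaks was 25302 ± 121 reads in NTC (SD, n = 3), 17965 ± 436 with #1 and 20947 ± 950 with #4.

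The other windows were summed in the same way. Hspa5 held 17848 ± 150 reads in NTC (SD, n = 3), 14032 ± 309 with #1 and 15097 ± 416 with #4. Sox9 went from 7213 ± 155 to 8735 ± 173 with #1 and 7926 ± 249 with #4, and Bhlhe40 from 30020 ± 84.1 to 33379 ± 780 and 33359 ± 1361. Nr2f1 stood at 4143 ± 78.0, 4467 ± 241 and 3823 ± 194. Rarb stood at 20897 ± 234, 22092 ± 314 and 21282 ± 548, and Bhlhe41 at 9129 ± 74.0, 9160 ± 194 and 9350 ± 168. These sums were not tested, and they weight strong peaks most.

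**Figure D5:**
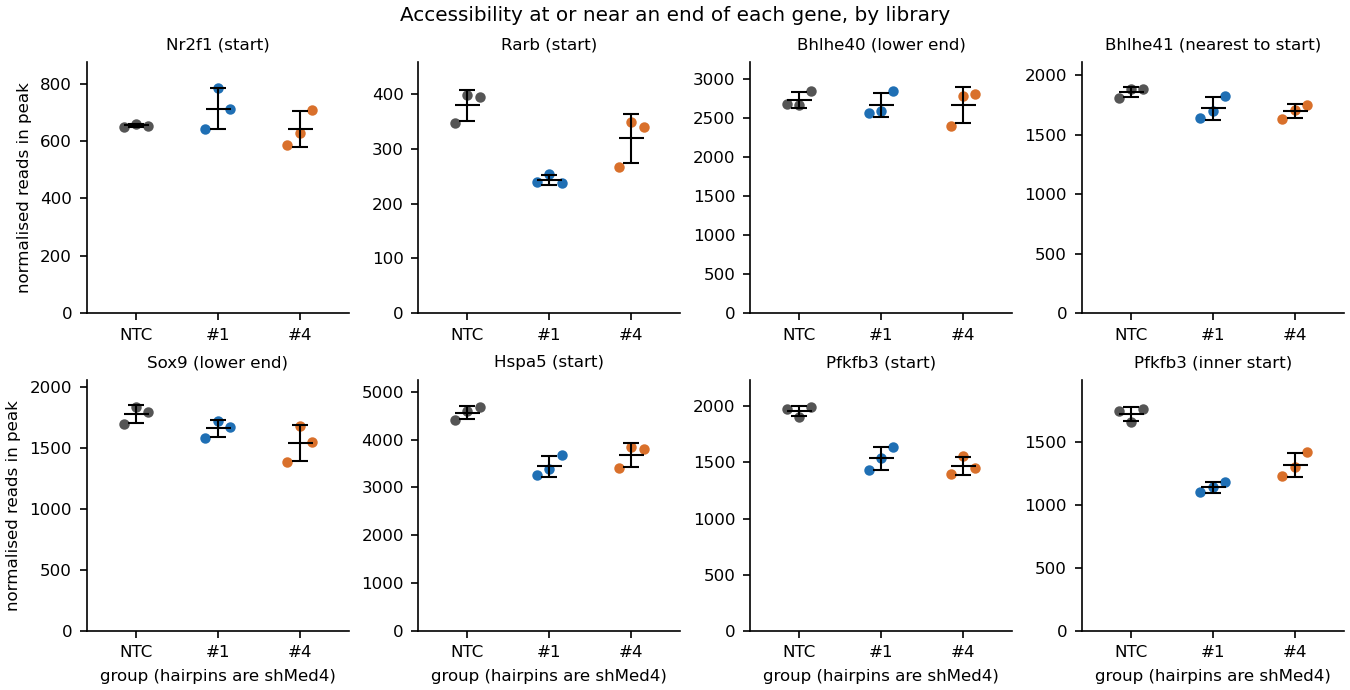
Normalised reads per library at the peak on or nearest an end of each gene: the start where the promoter table has one, the lower-coordinate end for Bhlhe40 and Sox9, and the nearest peak for Bhlhe41. Points are libraries, the bar is the mean and the whisker 1 SD (n = 3 per group). The Hspa5 and Pfkfb3 panels show all hairpin libraries below NTC, while at Nr2f1 and Bhlhe40 the 3 groups overlap.

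All peaks have the same width, so levels are given side by side without a length correction, and what local sequence, mappability and copy number add to a level was not tested. At gene starts or ends NTC accessibility ran from Hspa5 (4558 ± 139 reads, SD, n = 3) through Bhlhe40 (2734 ± 98.4), Pfkfb3 (1957 ± 45.0), Sox9 (1778 ± 71.9) and Nr2f1 (655 ± 5.33) to Rarb (379 ± 28.0), with no overlap between neighbours in this order. With either hairpin Pfkfb3 and Sox9 overlapped, at 1468 ± 82.4 and 1540 ± 147 with #4, and the other places in the order were as in NTC.

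Among 12117 genes with a start or end peak, falls outnumbered rises: 36.9% were lower and 9.59% higher with #1, and 44.5% and 9.71% with #4, at medians of -0.10 and -0.13. The falls at Hspa5, Pfkfb3 and Rarb therefore stand in a background of many falling starts. The partner genes of each pathway, from lists chosen with earlier results of these data known, are set beside that background. Of 16 retinoic acid pathway genes with a peak, 0 rose and 8 fell with #1, and 1 rose and 10 fell with #4, at medians of -0.18 and -0.14. Aldh1a1, which makes retinoic acid, fell by 0.37 and 0.89, and Rxra, the dimer partner of retinoic acid receptors, by 0.47 and 0.44. Of 7 Sox genes, 3 fell with #1 and 1 with #4, and Sox12 fell with both (-0.66 and -0.31). Rxra and Sox12 lie on chromosome 2, which was shifted down as a whole, at medians of -0.32 and -0.16.

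Of 19 circadian clock genes, 1 rose and 8 fell with #1, and 1 rose and 9 fell with #4. The clock repressors Nfil3 (-0.30 and -0.43) and Cry2 (-0.37 and -0.25) had the lowest mean of the 2 log2 folds among the clock genes that fell with both hairpins, while with #1 alone Hlf (-0.31) was slightly below Nfil3. Of 23 endoplasmic reticulum stress genes, 0 rose and 10 fell with #1, and 0 rose and 15 fell with #4, at medians of -0.09 and -0.17. Trib3, a pseudokinase induced by that stress, fell by 0.43 and 0.40, and Pdia6, a disulfide isomerase, by 0.43 and 0.30. Hspa5 itself was at -0.41 and -0.31. Cry2 and Trib3, like Hspa5, lie on chromosome 2, which was shifted down as a whole.

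Of 18 genes of glycolysis control, 2 rose and 8 fell with #1, and 0 rose and 9 fell with #4. The glycolytic kinase gene Pgk1 fell most, by 1.14 and 1.33, from 10895 reads in NTC to 4934 and 4354, and the phosphatase gene Fbp2 fell by 0.49 and 0.47. Pgk1 promoters are also widely used in expression vectors, and reads from a vector copy cannot be told apart from reads of the gene in these values. Of 29 other dormancy genes, 2 rose and 15 fell with #1, and 2 rose and 13 fell with #4. Dyrk1b, which encodes a kinase that keeps cells in quiescence, rose by 1.26 and 1.36, from 209 reads to 502 and 537. The cytokine receptor gene Lifr fell by 0.67 and 0.78 and the receptor kinase gene Tyro3 by 0.46 and 0.31. Tyro3 also lies on chromosome 2, which was shifted down as a whole.

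The start peaks most like each member's over the 9 libraries were found by Pearson correlation, given as a description since depth and library are shared. For Hspa5 they were Rnf24 (r = 0.997), Wdr89 (0.995) and Hat1 (0.994), of which Rnf24 and Hat1 also lie on chromosome 2. For Pfkfb3 they were Sod3 (0.994), Zfp423 (0.991) and Nptxr (0.987), none of them on chromosome 2, at log2 folds from -0.63 to -0.96. For Rarb, Slc25a20 (0.987) had the same stronger fall with #1 (-0.78 and -0.33). The best matches of Sox9 and Bhlhe40 were Spire2 (0.982) and the shared peak of Eif3i and Tmem234 (0.986). Nr2f1 had its best match at 0.936 (Sem1).

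Libraries held 44.8 to 98.9 M reads in peaks, with medians of 110 to 247 reads per peak. Reads in peaks ran from 75.5 to 96.1 M in NTC, 72.8 to 98.9 M with #1 and 44.8 to 87.6 M with #4. What this depth difference adds to the #4 comparisons was not tested. A tolerance of 0.0001 of a read was that within which all deposited values were whole multiples of a library's step. Library pairs of different groups differed by 9.96 to 29.1 in chi-square per degree of freedom, against 1.99 to 2.92 within groups. Of 6 mammary epithelial markers only Krt18 had a start peak, and Epcam and Cdh1 had none, while Vim, Fn1 and Zeb1 of 4 mesenchymal markers had one. Of 3 endothelial and 2 neural markers, 1 of each list had a start peak (Cdh5 and Snap25). Krt18 rose from 164 ± 5.60 reads in NTC to 368 ± 18.1 with #1 and 465 ± 39.1 with #4 (SD, n = 3; log2 folds 1.16 and 1.49), and Vim fell from 4155 ± 227 to 3072 ± 18.1 and 3085 ± 176 (-0.43 and -0.43). Cdh5 rose from 239 ± 10.1 to 433 ± 33.7 and 282 ± 18.4 (0.85 and 0.24), and Snap25 fell by 0.90 with #1 and was not called with #4. Fn1 and Zeb1 were not called with either hairpin. The part of these shifts in the results at the 7 genes was not tested. A start peak is not a measure of expression. Since nothing used here says that the replicates were transduced separately, p-values reflect the spread among libraries only, which may be technical in part.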

How the data were processed

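ATAC-seq was carried out on 9 libraries in 3 groups of 3. The deposited values are signal: read counts per peak that the authors normalised with DESeq2 size factors, as the deposited table's name says. Trim Galore, BWA, MACS2, featureCounts and Subread and the builds mm10 and GRCm38 are named in the submitters' processing notes without versions. No source used here says whether peak calling pooled the libraries. Coordinates follow the deposited peak names, which do not say if counting starts at 0. Gene bodies, promoter sequences and starts came from RefSeq tables of GRCm38.p6.

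The main test was limma 3.58.1 in R 4.3.3 (eBayes with trend=TRUE) on log2(value + 1), in 1 fit over all 9 libraries. It covered 146729 peaks whose mean reached 10, with Benjamini-Hochberg adjustment over those peaks. Fold changes are on that log2 scale. Whole reads were recovered from the deposited values and used for edgeR 4.0.16 and DESeq2 1.42.0 as alternatives only. The fit was checked on simulated data.

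A gene-start peak was the peak with the highest mean centred within 1 kb of a start in the promoter table or, without one, of either gene end. By the naming rule, the text names each member's start peak, its strongest peak, and the 2 highest and 2 lowest called log2 folds per hairpin among peaks whose mean reached 50. Of each list it names up to 2 genes per direction with the most extreme mean fold among those called with both hairpins, and up to 3 most alike genes per member. The text marks exceptions to the rule. Members, lists, rules and tests were chosen with earlier results of these data known. The labels do not say whether replicate numbers pair libraries across groups, and the main fit did not pair them. Python 3.11.15 with numpy 2.4.6, pandas 2.3.3 and matplotlib 3.10.9 made tables and figures. The result of 1 marker list is not reported here.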

Additional observations from a re-analysis of the deposited data

Results flagged for a closer look

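At 4 of the 159 peaks the hairpins moved accessibility in opposite directions, each called against NTC, and the difference between hairpins was itself called by limma. The search covered all 159 peaks and not only those of the naming rule, a widening chosen after the values were seen. Inside Rarb, 23.4 kb after the start (chr14:16551804-16552305, outside the naming rule), NTC held 615, 562 and 557 normalised reads, #1 held 872, 860 and 855, and #4 held 411, 354 and 411. The log2 folds were 0.58 and -0.56, and #4 was below #1 by -1.14 (adjusted p = 2.2e-15). A site 64.7 kb after the Rarb start, also outside the rule, had 0.26 and -0.32 and a difference of -0.58 (adjusted p = 2.3e-07). The Nr2f1 peak described above differed by -0.53 (adjusted p = 1.2e-05). Below Pfkfb3, at chr2:11425713-11426214, the folds were -0.22 and 0.43 and the difference 0.65 (adjusted p = 1.8e-09), where the #1 fall was lost without #1 replicate 1 and under all centrings. Groups of 3 libraries are too small for a search for outlying libraries.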

How the results depend on the processing

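Of 3168 values from 24 alternatives over 132 comparisons at 44 named peaks, 2908 kept their direction and their side of the threshold, 205 lost the call, 49 gained one and 6 changed direction. The largest rises near Sox9 and inside Rarb and the largest falls inside Pfkfb3, given above, kept their calls against NTC in every alternative run. The centrings were planned on median levels, and a version on median deviations from the peak mean was added after the data had been seen. Among the counts, the falls with #4 (53) were 31 and 33 under the planned and added centrings on gene-start peaks. Rises with #4 (37) were 24 and peaks higher with #4 than #1 (35) were 23 under planned chromosome centring, and the latter were 21 at an adjusted p under 0.01. Leaving out each library gave 31 to 38 rises and 47 to 57 falls with #1, 32 to 39 and 43 to 54 with #4, and 26 to 33 and 24 to 30 for #4 against #1.

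Directions changed under chromosome centring for the Pfkfb3 site below the gene with #1 (-0.22 to 0.00060, and 0.084 by deviations), for Bhlhe40 at chr6:108709404-108709905 (0.22 to -0.081) and chr6:108672000-108672501 (0.24 to -0.060) with #4, and for Bhlhe41 at chr6:145906075-145906576 with #4 (0.06, not called, to -0.24). Gene-start centring turned Bhlhe40 at chr6:108688238-108688739 with #4 from -0.01, not called, to 0.12. The cause was not tested. With a replicate block, rises and falls were 38 and 57 with #1, 38 and 55 with #4, and 38 and 30 for #4 against #1. Across groups, deviations of libraries of the same number had correlations from -0.011 to 0.073, against -0.10 to 0.041 for different numbers. Depth limits the weak peaks most: 25 of the 64 Rarb peaks had a mean under 100 reads in NTC.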
